A study of Mus musculus with 6 samples.

Results

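A set of 10 genes of the fibroblast growth factor (FGF) signalling system were followed in 4T1 cells, an established mouse mammary carcinoma line, with and without the kinase inhibitor TKI258. The genes were chosen by name, with earlier results of these data known. They are the receptor tyrosine kinase genes Fgfr1, Fgfr2, Fgfr3 and Fgfr4, the receptor gene Fgfrl1, the ligand genes Fgf1, Fgf2 and Fgf7, the ligand carrier gene Fgfbp1 and the adaptor gene Frs3, out of 19938 genes measured. Each gene was read by the brightest probe set that the platform annotation gives a lone gene symbol, and each of the 10 had 1 such probe set. The study used 6 Affymetrix arrays, 3 from dishes that received 500 nM TKI258 for 16 h and 3 from dishes that received the vehicle DMSO for the same time. All dishes held 4T1 cells seeded at 750000 per 10 cm dish and grown for 24 h before treatment, in medium with 10% serum, and no dish was kept without vehicle or drug. The labels call the arrays biological replicates from separate dishes of the line, so the spread is that between dishes, and 3 arrays per group limit the precision.

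FGFs are secreted proteins that bind heparan sulfate on the cell surface and pair their receptors, which then phosphorylate each other. Docking proteins of the FRS family pass the signal through GRB2 and SOS to RAS and the ERK kinases, and ERK output includes ETS transcription factors and inhibitors of the Sprouty, Spred and DUSP families that damp the pathway. In the mammary gland, FGFs from the stroma act on FGFR2 of the epithelium. TKI258, also called dovitinib, blocks the kinase activity of FGF, VEGF and PDGF receptors. The comparison asks how the transcripts of the receptors, ligands and adaptor differ between cells kept with the drug and cells kept with vehicle.

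Of the 10 genes, 4 were higher after TKI258 and 0 were lower in limma at a Benjamini-Hochberg adjusted p below 0.05, and 0 were lower at an unadjusted p under 0.05. The 4 were the ligand gene Fgf7 (1.51-fold), the receptor gene Fgfrl1 (1.44-fold), the ligand gene Fgf1 (1.34-fold) and the receptor kinase gene Fgfr1 (1.23-fold). In the same fit 14.4% of all genes were higher, 12.6% were lower and 27.0% passed in either direction. The median log2 change was 0.21 over the 10 genes and 0.01 over all genes. The arrays of the groups did not overlap in 6 of the 10 genes, with TKI258 the higher group in all 6, against 40.2% of all genes without overlap in either direction and 21.4% without overlap and higher after TKI258. Signals are log2 values per probe set, and log2 changes are TKI258 minus DMSO, each with its standard error (SE) as moderated by limma. When limma was run on all 21789 probe sets with a lone symbol, 26.5% passed and the same 4 of the 10 did, since each of the 10 has 1 probe set. RNA came from whole dishes, so more RNA per cell and more cells with the RNA cannot be told apart.

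**Figure D1:**
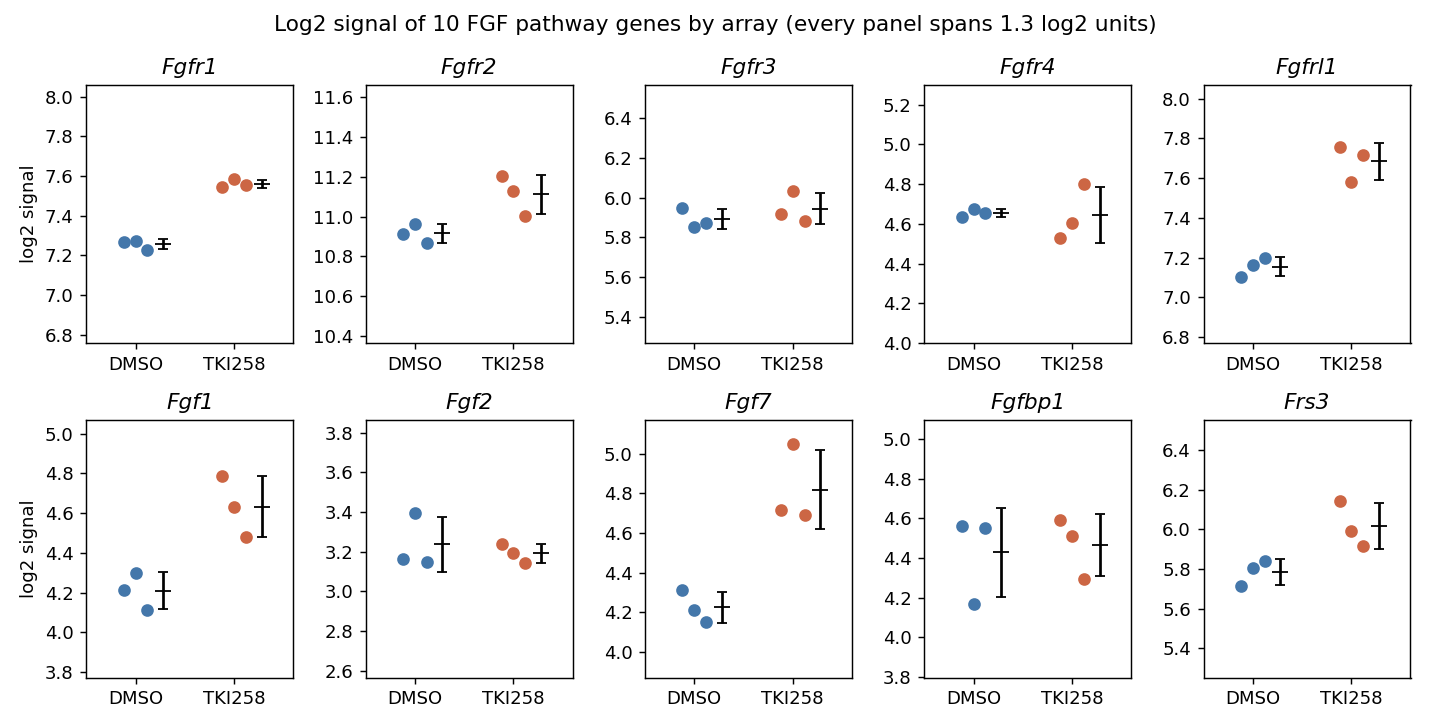
Log2 signal of each of the 10 genes on the 3 DMSO arrays (blue) and the 3 TKI258 arrays (orange), with the mean ± SD of each group in black. Panels have their own level on the vertical axis and the same span. Fgfr1, Fgfrl1, Fgf1 and Fgf7 show separate groups by the widest margins, Fgfr2 and Frs3 show separate groups that nearly touch, and Fgfr3, Fgfr4, Fgf2 and Fgfbp1 overlap.

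Promoter sequence from RefSeq (build GRCm38.p6) was used for 8 of the 10 genes. Fgfr1 and Fgf1 are named only. The windows hold the 250 bases before an annotated gene start, 5′ to 3′ in the direction of transcription. Shown are Fgfrl1 and Fgf7, which rose, beside Fgfr2 and Fgfr4, receptor kinase genes that did not pass the test. Capitals mark matches, on either strand, to CCGGAA (the core bound by ETS factors), TGANTCA (AP-1), GTAAACA (FOXO), GGGCGG (SP1) and CACGTG (E-box). Matches to different motifs do not overlap in these 4 windows. The positions are chr5:108693979-108694228 (plus strand) for Fgfrl1, chr2:126034408-126034657 (plus strand) for Fgf7, chr7:130266809-130267058 (minus strand) for Fgfr2 and chr13:55152568-55152817 (plus strand) for Fgfr4.
Fgfrl1: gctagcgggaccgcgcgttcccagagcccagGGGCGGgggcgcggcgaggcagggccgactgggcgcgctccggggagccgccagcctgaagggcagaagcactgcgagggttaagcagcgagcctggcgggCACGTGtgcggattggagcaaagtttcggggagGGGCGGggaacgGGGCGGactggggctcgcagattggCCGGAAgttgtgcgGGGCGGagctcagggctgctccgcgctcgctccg
Fgf7: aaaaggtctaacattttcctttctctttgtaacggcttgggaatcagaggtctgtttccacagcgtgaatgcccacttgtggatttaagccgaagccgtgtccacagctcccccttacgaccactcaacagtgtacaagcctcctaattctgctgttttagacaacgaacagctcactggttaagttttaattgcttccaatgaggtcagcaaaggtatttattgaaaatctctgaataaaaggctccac
Fgfr2: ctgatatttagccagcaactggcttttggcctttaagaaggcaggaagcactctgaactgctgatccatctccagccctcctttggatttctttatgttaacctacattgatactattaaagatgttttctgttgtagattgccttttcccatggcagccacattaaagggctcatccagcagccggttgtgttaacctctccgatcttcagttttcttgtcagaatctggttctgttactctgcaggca
Fgfr4: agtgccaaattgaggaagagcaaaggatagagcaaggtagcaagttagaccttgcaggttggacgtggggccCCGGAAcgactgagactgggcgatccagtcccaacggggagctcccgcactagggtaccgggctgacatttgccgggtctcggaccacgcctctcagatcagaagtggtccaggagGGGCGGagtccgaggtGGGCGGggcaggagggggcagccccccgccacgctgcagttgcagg
The Fgfrl1 window has 4 SP1 matches, 1 E-box and 1 ETS match, the last starting 48 bases before the gene start. The Fgf7 and Fgfr2 windows have none of the 5 motifs, and the Fgfr4 window has 2 SP1 matches and 1 ETS match. Over the 8 genes, 5 had an SP1 match, 2 an ETS match, 1 an E-box, 0 an AP-1 match and 0 a FOXO match in a window. Among 32851 RefSeq windows of the same length the shares with a match were 32.7% for SP1, 12% for ETS, 6.02% for the E-box, 6.75% for AP-1 and 3.17% for FOXO. A match is a description of the letters, and no window was tested for binding.

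Among the receptor kinase genes, 1 of 4 passed, against 27.0% of all genes in either direction. Fgfr1, the receptor kinase gene typical of mesenchymal tissue, had log2 signals of 7.27, 7.27 and 7.23 on the DMSO arrays and 7.54, 7.58 and 7.56 on the TKI258 arrays. The 3 treated arrays all lay above the 3 controls, with a gap of 0.27 between the nearest arrays, and the spread within each group was small. The means were 7.26 ± 0.03 (SD, n = 3) and 7.56 ± 0.02 (SD, n = 3), a log2 change of 0.30 (SE 0.06, limma adjusted p = 0.00428).

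Fgfr2 encodes the receptor through which stromal FGFs act on epithelium, and its probe set was among the brightest, with 2.06% of genes above it. It measured 10.91, 10.96 and 10.87 with DMSO and 11.20, 11.13 and 11.01 with TKI258. The groups did not overlap, but the lowest treated array lay only 0.04 above the highest control. The log2 change of 0.20 (SE 0.07, 95% interval 0.03 to 0.36) did not pass after adjustment (limma adjusted p = 0.0761). Without TKI258 replicate 3, the lowest of the treated arrays, the log2 change was 0.25 and the adjusted p 0.0294. With renewed quantile normalization the adjusted p was 0.0341, among genes above the median level 0.0317, with trended and robust variances 0.00902 and with array weights 0.0445, so the call of Fgfr2 depends on these choices. Over its 14 alternatives the adjusted p ran from 0.00902 to 1.00. The probe set gives 1 value for the gene, so its epithelial and mesenchymal splice forms were not told apart.

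Fgfr3, a receptor kinase gene known for its role in cartilage and urothelium, measured 5.95, 5.85 and 5.87 with DMSO and 5.92, 6.03 and 5.88 with TKI258. The groups were interleaved. The log2 change was 0.05 (SE 0.07, limma adjusted p = 0.662), and its 95% interval ran from -0.10 to 0.21. Fgfr4, the receptor kinase that pairs with beta-klotho in liver, measured 4.63, 4.67 and 4.66 with DMSO and 4.53, 4.60 and 4.80 with TKI258, so the treated arrays spread to either side of the controls. Its log2 change was -0.01 (SE 0.08, 95% interval -0.19 to 0.17, limma adjusted p = 0.956). Its signal was under the probe set median of 5.01 log2 units, where changes are measured with less certainty.

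Fgfrl1 encodes an FGF-binding receptor that lacks the tyrosine kinase domain. It had the smallest adjusted p of the 10 genes. Its log2 signals were 7.10, 7.16 and 7.20 with DMSO and 7.76, 7.58 and 7.72 with TKI258, with 0.38 between the nearest arrays of the groups. The mean rose from 7.15 ± 0.05 (SD, n = 3) to 7.68 ± 0.09 (SD, n = 3), a log2 change of 0.53 (SE 0.07, limma adjusted p = 0.000489). A change of this size or more, in either direction, was seen in 9.48% of all genes. With each array left out in turn the log2 change of Fgfrl1 was 0.49 to 0.58, and it was the only one of the 10 that passed limma's test against a minimum fold of 1.2 (adjusted p = 0.0264).

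**Figure D2:**
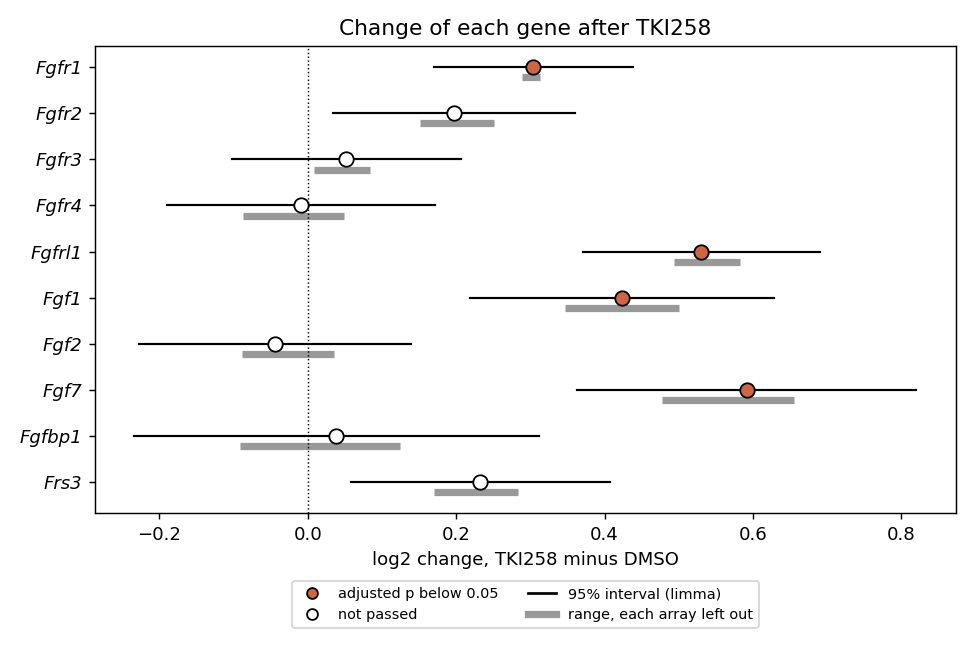
Log2 change (TKI258 minus DMSO) of each of the 10 genes, with limma's 95% interval as a thin line and the range of the estimate with each array left out in turn as a grey bar. Filled points passed at an adjusted p below 0.05. Fgfr1, Fgfrl1, Fgf1 and Fgf7 are filled, from 0.30 to 0.59, while the intervals of Fgfr2 and Frs3 lie above 0 without passing the adjustment.

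The receptor genes were also compared within each array, where an offset shared by a whole array cancels. The log2 difference Fgfr1 minus Fgfr3 was 1.32, 1.42 and 1.35 with DMSO and 1.62, 1.55 and 1.68 with TKI258, a shift of 0.25 without overlap. Fgfr1 minus Fgfr4 was 2.64, 2.60 and 2.57 with DMSO and 3.01, 2.98 and 2.76 with TKI258, a shift of 0.31 without overlap. Fgfr1 minus Fgfrl1 was 0.17, 0.11 and 0.03 with DMSO and -0.22, 0.00 and -0.16 with TKI258, a shift of -0.23 without overlap. Each of these 3 gave p = 0.1 in an exact two-sided permutation test, the smallest that 3 arrays against 3 allow, and 0.133 adjusted over the 4 pairs compared. Fgfr1 minus Fgfr2 was -3.64, -3.69 and -3.64 with DMSO and -3.66, -3.54 and -3.45 with TKI258, where the groups overlapped (shift 0.11, exact permutation p = 0.3, adjusted 0.3). With renewed quantile normalization, which can move bright and dim probe sets differently, the shift of Fgfr1 minus Fgfr2 was 0.022 (exact permutation p = 0.7), and the other 3 shifts were 0.27, 0.30 and -0.23. The levels themselves come from different probe sets and were not ranked. With p at its floor, the test could not pass 0.05 for any pair.

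**Figure D3:**
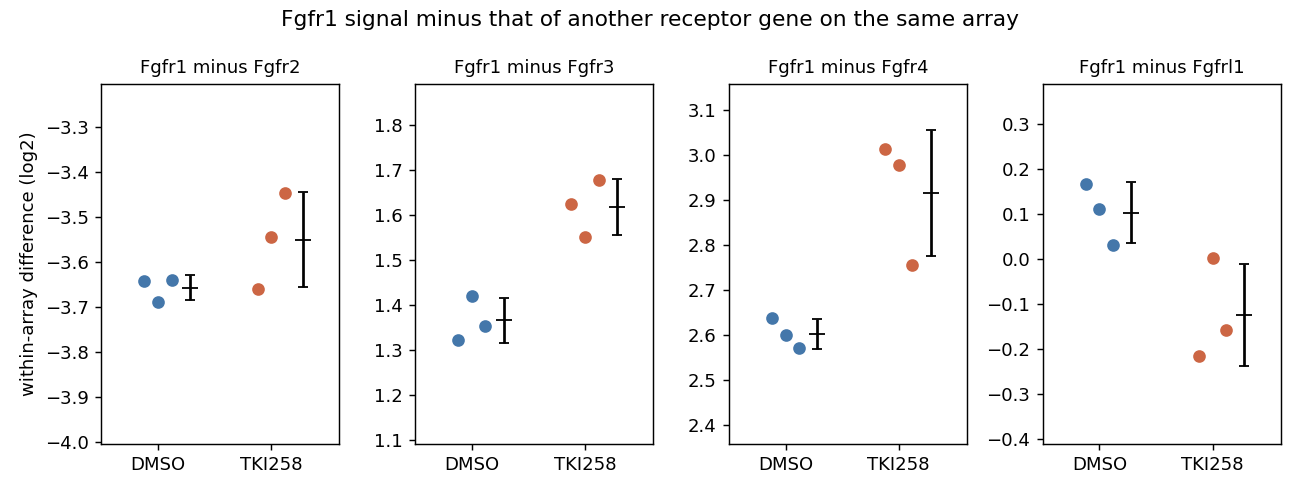
Fgfr1 signal minus the signal of Fgfr2, Fgfr3, Fgfr4 or Fgfrl1 on the same array (log2 units), for 3 DMSO arrays (blue) and 3 TKI258 arrays (orange), with the mean ± SD of each group in black. The groups are separate for Fgfr3, Fgfr4 and Fgfrl1 and overlap for Fgfr2, and only the difference to Fgfrl1 was lower after TKI258.

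The ligand genes split. Fgf7, the keratinocyte growth factor that acts on the epithelial form of FGFR2, measured 4.31, 4.21 and 4.15 with DMSO and 4.71, 5.05 and 4.69 with TKI258. Every treated array lay at least 0.38 above the highest control, and TKI258 replicate 2 was the highest. The means were 4.22 ± 0.08 (SD, n = 3) and 4.82 ± 0.20 (SD, n = 3), a log2 change of 0.59 (SE 0.10, limma adjusted p = 0.00202), the largest of the 10. Without TKI258 replicate 2 it was 0.48.

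Fgf1, the acidic FGF that can bind all FGF receptor kinases, measured 4.21, 4.30 and 4.11 with DMSO and 4.79, 4.63 and 4.48 with TKI258. The groups were separated by 0.18. The log2 change was 0.42 (SE 0.09, limma adjusted p = 0.00686), and it ranged from 0.35 to 0.50 with each array left out. Both ligand genes that rose had mean signals under that median in either group. Among the 8723 genes at such levels 3.28% were called higher and 4.88% were called in either direction, against 23.0% and 44.2% of the genes above the median.

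Fgf2, the basic FGF, was read by a dim probe set, with 86.5% of genes brighter. Its arrays read 3.17, 3.40 and 3.15 with DMSO and 3.24, 3.19 and 3.14 with TKI258, all treated values falling within the range of the controls or just under it. The log2 change was -0.04 (SE 0.08, 95% interval -0.23 to 0.14, limma adjusted p = 0.76). The files give no detection calls, so no gene was called absent, and at this level a change in Fgf2 may not be detectable. Fgfbp1, whose secreted protein frees FGFs from heparan sulfate, read 4.56, 4.17 and 4.55 with DMSO and 4.59, 4.51 and 4.29 with TKI258. DMSO replicate 2 stood below the other 2 controls, and the groups overlapped (log2 change 0.04, SE 0.12, 95% interval -0.23 to 0.31, limma adjusted p = 0.87).

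Frs3, a docking protein gene of the FRS family, read 5.71, 5.80 and 5.84 with DMSO and 6.14, 5.99 and 5.92 with TKI258. The 3 treated arrays lay above the controls with a gap of 0.08. The log2 change of 0.23 (SE 0.08, 95% interval 0.06 to 0.41) just missed the threshold (limma adjusted p = 0.054). Without TKI258 replicate 3 the change was 0.28 (adjusted p = 0.0316), and Frs3 also passed among genes above the median level (0.0226) and with array weights (0.0319), in a range of 0.0226 to 1.00 over its 14 alternatives.

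By its pattern over the 6 arrays, Fgfrl1 was most like Prmt9, an arginine methyltransferase gene (Pearson's r = 0.9997), Prkd2, a protein kinase D gene (0.998), and Fam210b (0.998). Their log2 changes were 0.33, 0.80 and 0.81, and all 3 passed in limma (adjusted p = 0.00386, 0.000102 and 0.000182). The points are the same 6 arrays in the same 2 groups, and 1150 of 19937 genes had a correlation with Fgfrl1 above 0.95, so the likeness is a description only.

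The other genes of the system were read from lists drawn from textbook knowledge. Of the 15 other secreted FGF ligand genes, 0 passed in limma in either direction, and 1 was higher and 0 were lower at an unadjusted p under 0.05. That gene was Fgf22, at a log2 change of 0.20 (limma adjusted p = 0.0909), followed by Fgf16 at 0.16 (0.146). Their changes ran from -0.05 to 0.20 with a median of 0.02, and 10 of the 15 lay below the median signal level. Of all genes 27.0% passed in either direction, with 4.88% of those below that level and 44.2% of those above it. Of the 4 intracellular FGF homologous factor genes 0 passed and 0 had an unadjusted p under 0.05, with Fgf13 and Fgf11 at 0.12 each (adjusted p = 0.273 and 0.317). Of these 4, 3 lay below the median signal level. Fgf1 and Fgf7 thus passed while Fgf2 and the 15 other secreted ligands did not, a contrast that was not itself tested.

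Against 14.4% of all genes higher and 12.6% lower, 1 of 7 co-receptor and FGF-binding genes rose and 0 fell. It was Il17rd, which encodes the FGF pathway inhibitor Sef, at 5.45, 5.51 and 5.37 with DMSO and 6.47, 6.29 and 6.05 with TKI258, a log2 change of 0.83 (SE 0.10, limma adjusted p = 0.000346). Every treated array was above every control. Without TKI258 replicate 1 the carrier gene Fgfbp3 passed as well, at 0.34 (adjusted p = 0.0126), which made 2.

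Of 13 receptor-proximal adaptor and effector genes 0 lay below the median signal level. Among all genes above it 23.0% were called higher and 44.2% in either direction. Of the 13, 4 rose and 0 fell, with a median log2 change of -0.02. The 4 were Cblb, a ubiquitin ligase that marks receptors for breakdown, at 0.50 (SE 0.07, limma adjusted p = 0.000937), Gab1, a docking protein, at 0.50, Plcg1, the phospholipase that binds activated FGF receptors, at 0.48, and Shc1, an adaptor, at 0.28. Without TKI258 replicate 3 the docking protein gene Gab2 passed as well, at 0.31 (adjusted p = 0.0107), which made 5. Gab1 read 5.94, 5.71 and 5.89 with DMSO and 6.38, 6.47 and 6.19 with TKI258, without overlap. Grb2, Sos1 and Ptpn11 had log2 changes of -0.05, 0.01 and -0.04 and did not pass. Of 8 genes of the RAS-ERK cascade 1 fell and 0 rose, against 12.6% of all genes lower and 14.4% higher. Rasa1, which encodes a RAS GTPase-activating protein, fell by 0.76 (SE 0.07, limma adjusted p = 5.66e-05), and the other 7 ran from -0.08 to 0.15. At an unadjusted p under 0.05 as well, 0 genes of the co-receptor and adaptor lists were lower and 0 of the cascade list were higher.

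The output genes of the pathway were mostly lower after TKI258, where 12.6% of all genes were lower in limma. Of all genes above the median signal level 44.2% were called in either direction. Below that level lay 1 of the 11 feedback inhibitor genes and 0 of the 10 target genes. Of 11 feedback inhibitor genes 9 fell and 0 rose in limma (1 was higher at an unadjusted p under 0.05, Spry1), with a median log2 change of -0.71. The pathway inhibitor gene Il17rd, given above with the co-receptors, was not in this list and rose by 0.83. Spry4 read 6.51, 6.76 and 6.56 with DMSO and 5.20, 5.40 and 4.95 with TKI258, a log2 change of -1.43 (SE 0.12, limma adjusted p = 3.09e-05). The ERK phosphatase gene Dusp6 was at -1.06, Dusp4 at -0.82 and Dusp7 at -0.71, while Spry1 and Spry3 had log2 changes of 0.23 and 0.08 and did not pass. Without DMSO replicate 3 Spry1 passed upward at 0.35 (adjusted p = 0.01). Of 10 target genes that ERK signalling induces 8 fell and 1 rose, with a median of -0.85. The ETS factor genes Etv4 and Etv5 had log2 changes of -2.09 and -1.94, the AP-1 gene Fosl1 of -1.92 and the immediate early gene Ier3 of -1.42. Fos rose by 0.47 (limma adjusted p = 0.00272), and Phlda1 at 0.06 did not pass. These lists were drawn up with earlier results of these arrays known, so their direction is a description.

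Of 12 genes that build or edit heparan sulfate, 4 rose and 2 fell, and 3 lay below the median signal level. Of all genes above that level 44.2% were called in either direction, and of those below it 4.88%. Sulf2, a sulfatase that trims heparan sulfate outside the cell, read 6.20, 6.09 and 6.15 with DMSO and 7.33, 7.79 and 7.72 with TKI258, a log2 change of 1.46 (SE 0.11, limma adjusted p = 2.56e-05). Hs6st1, a sulfotransferase, rose by 0.72, and the chain-building genes Ext1 and Ext2 by 0.45 and 0.35. The epimerase gene Glce was at -0.23 and the sulfotransferase gene Hs3st1 at -0.32 (adjusted p = 0.0275 and 0.0156). The call of Glce was lost without DMSO replicate 1, 2 or 3 or TKI258 replicate 1 (adjusted p = 0.0534, 0.105, 0.0794 and 0.0791), and that of Hs3st1 without DMSO replicate 3 or TKI258 replicate 2 (0.0641 and 0.0561). The heparanase gene Hpse, at 0.35 (adjusted p = 0.0534), passed without DMSO replicate 3 (0.0331), without TKI258 replicate 1 (0.0338) and with the replicate block (0.0074). Of 8 receptor kinase genes outside the FGF family that TKI258 is known to inhibit, 1 rose and 0 fell. It was Pdgfra, which gave 8.39, 8.30 and 8.29 with DMSO and 9.88, 9.85 and 9.75 with TKI258, a 2.83-fold rise. Of the 8, 6 lay below the median signal level, where few genes were called, so a change in them may have been missed. Without DMSO replicate 2 Flt3 passed as well, at 0.28 (adjusted p = 0.0429), which made 2.

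**Figure D4:**
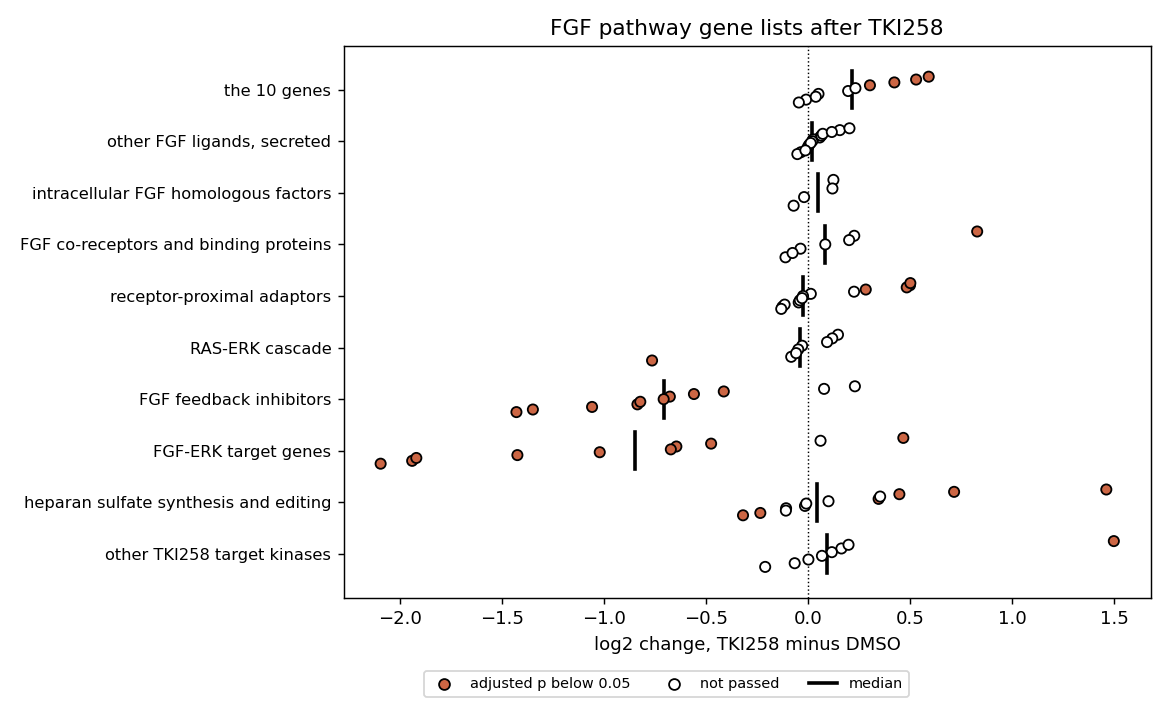
Log2 change (TKI258 minus DMSO) of the 10 genes and of the genes in 9 lists of the FGF system, with 1 point per gene, filled where the adjusted p was below 0.05, and a bar at each list's median. Points are spread vertically for visibility. The feedback inhibitors and ERK targets lie mostly to the left, with medians of -0.71 and -0.85, while the 10 genes lie at or to the right of 0 apart from Fgfr4 at -0.01 and Fgf2 at -0.04.

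The cells carried the markers of an epithelial line. Krt8 averaged 11.92 with DMSO and 11.80 with TKI258, Epcam 7.58 and 7.54, and 1 of 10 epithelial markers lay below the median signal level. Of all genes above that level 23.0% were called higher and 44.2% in either direction. Of the 10 markers, 5 rose and 2 fell, against 14.4% of all genes higher and 12.6% lower. Cdh1 at 1.09, Krt19 at 0.94 and Cldn4 at 0.89 were among those higher. The 2 that fell were Krt18 at -0.50 and Krt7 at -0.39 (limma adjusted p = 0.000941 and 0.0091). The call of Cldn3 (0.24, limma adjusted p = 0.0274) was lost with the replicate block, with quantile normalization, with median centring and without each array except TKI258 replicate 2, at adjusted p of 0.053 to 0.104. Without TKI258 replicate 3 Cldn7 passed in its place (adjusted p = 0.0349). Because Fgf7 is made by fibroblasts in tissue, fibroblast markers are given beside it. The mean log2 signal of 8 such markers was 4.50 to 4.61 on the DMSO arrays and 4.82 to 4.89 on the TKI258 arrays. Their median log2 change was only 0.10, and 4 of the 8 lay below the median signal level. Dcn alone passed, at a log2 change of 2.01, while Col1a1, Col1a2 and Col3a1 had 0.18, 0.09 and -0.05, and Lum and Fap read 2.50 to 2.98 on every array. Their part in the rise of Fgf7 was not tested. Of 7 macrophage markers Cd68 and Cd14 rose by 0.82 and 0.74, with 5 of the 7 below the median level, and of 7 endothelial markers Eng rose by 0.43, also with 5 below it. Over all genes, arrays correlated at 0.997 to 0.998 within a group and 0.988 to 0.99 between groups, and array medians lay between 4.97 and 5.04.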

How the data were processed

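RNA of 4T1 cells was amplified, biotin-labelled and hybridised to Affymetrix arrays, per the labels' protocols. The authors deposited 1 value per probe set and array, read here as a log2 signal because of its range and the like medians of all arrays; no source used here states the scale. Per the submitters' processing notes, RMA, affy and limma were used, with no role stated. RMA as usually run equalises the distribution of arrays and shrinks changes of dim probe sets, so a shift shared by all genes would not be seen. Of 35557 probe sets, 21789 had 1 gene symbol in the platform annotation, 1621 several and 12147 none, and the brightest with 1 symbol stood for each of 19938 genes. All 10 genes matched the RefSeq gene table.

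TKI258 was compared with DMSO by lmFit and eBayes in limma 3.58.1 (R 4.3.3), treatment as the only term, no filter, two-sided p-values adjusted by Benjamini-Hochberg over all genes, threshold 0.05. On simulated data for this comparison (19938 genes, 50 changed at each size) it recovered 4 genes of size 0.25 (log2), 47 of size 0.5, 50 of size 1 and 50 of size 2. There were 164 calls, 13 of them false, and 0 calls when nothing was changed. That simulation altered few genes, so its adjustment was stricter than in the real data.

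The 10 genes, the lists and the tests were chosen with earlier results of these data known. Named list genes are up to 4 per pathway list (2 per marker list) with the smallest adjusted p, or the 2 smallest where none passed, and the 3 genes most like the member with the smallest adjusted p. Others named were chosen after their values were seen. Alternatives were a replicate block, each array left out, renewed quantile normalization, median centring, genes above the median level only, the mean of probe sets, trended and robust variances, array weights, an adjusted p below 0.01 and treat against a fold of 1.2. No batch is given in the labels.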

Additional observations from a re-analysis of the deposited data

How the results depend on the processing

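The count of 4 higher and 0 lower among the 10 genes was the same with the replicate number as a block, with median centring, with the mean of probe sets, at an adjusted p below 0.01, and without each array except TKI258 replicate 3, which gave 6 higher (range 4 to 6). It was 5 with renewed quantile normalization and with trended and robust variances, and 6 with array weights. Among genes above the median level it was 4, but not the same 4. There Fgf1 and Fgf7 are not tested, and Fgfr2 and Frs3 passed beside Fgfr1 and Fgfrl1. Against a minimum fold of 1.2 it was 1, Fgfrl1, with Fgf7 at an adjusted p of 0.0515, Fgf1 at 0.372 and Fgfr1 at 1.00, and all genes gave 1057 higher and 864 lower in place of 2866 and 2519, since that test asks for a larger change. The log2 change of Fgfr4, Fgf2 and Fgfbp1 turned sign when arrays were left out, with ranges of -0.087 to 0.049, -0.088 to 0.035 and -0.092 to 0.12. None of the 10 changed sign under quantile normalization or median centring, which left the median of all genes at 0.01 and -0.01. The replicate block gave 2877 genes higher and 2487 lower, and 12 list genes higher and 20 lower against 11 and 20, with Hpse as the addition (adjusted p = 0.0074), while the marker Cldn3 lost its call (0.0548). Deviations of arrays with the same number correlated at 0.02, 0.05 and 0.15, so the numbers were not taken as pairs. No detection calls were at hand, and 5 of the 10 genes lay below the median signal level, which limits what can be said of Fgfr4, Fgf1, Fgf2, Fgf7 and Fgfbp1.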

Other observations

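The treated arrays varied more than the controls in most genes. The SD was larger with TKI258 than with DMSO in 7 of the 10 FGF system genes and in 62.1% of all genes. TKI258 replicate 3 was the lowest of the treated arrays in 7 of the 10 and in 30.7% of all genes, and leaving it out brought Fgfr2 and Frs3 past the threshold. Why this array was low in these genes was not tested.

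Fgf2os, listed as an opposite-strand transcript of Fgf2, has a probe set of its own. It read 3.47, 3.56 and 3.45 with DMSO and 3.70, 3.41 and 3.47 with TKI258, a log2 change of 0.03 (SE 0.08, limma adjusted p = 0.833).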
